A study of Mus musculus with 78 samples.

Results

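The rod phototransduction genes examined here are the 10 genes Gnat1, Gnb1, Gngt1, Pde6a, Pde6b, Pde6g, Cnga1, Cngb1, Slc24a1 and Sag, which encode the G protein, effector, channel, exchanger and arrestin of the rod light response. They were chosen by gene symbol, as the probe sets that the platform annotation assigns to that symbol alone. They make up 10 of 19301 genes with such a probe set, and 11 of 22347 probe sets, because Cngb1 has 2. Levels are linear intensities on Affymetrix Mouse Gene 1.0 ST arrays, which hybridize labelled whole-transcript copies of the RNA, and differences are on the log2 scale of intensity.

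RNA came from 200 fluorescent cells per sample, sorted from dissociated adult mouse retina, on 78 arrays from 22 transgenic lines in 26 sets of 3 biological replicates. Rods came from b2-Cre × Rosa26-LSL-RFP mice, measured as the sets b2 1st (batch 1), b2 2nd and b2 single (both batch 2), 9 arrays in all. Cones came from Tg(Chrnb4-EGFP)1Gsat mice (Chrnb4, batch 1) and d4-Cre × Rosa26-LSL-RFP mice (d4, no batch given), 6 arrays in all. The other 21 sets (63 arrays) are 11 amacrine sets (9 lines, Arc among them as 3 sets), 4 bipolar, 4 ganglion, 1 horizontal and 1 microglia set, named here by their line. All samples carry 1 label of genetic background, a mix of FVB/N-Swiss Webster hybrid with C57BL/6J. The growth protocol states that the hybrid stock, before it was backcrossed, carried a recessive mutation that makes photoreceptors degenerate. FVB/N is known to carry the rd1 allele of Pde6b, 1 of the 10 genes; its part in these values was not tested. A line marks whichever cells its driver or transgene labels, and the labels do not say whether animals were pooled.

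In rods, the light-activated visual pigment turns on transducin, a G protein whose alpha (Gnat1), beta (Gnb1) and gamma (Gngt1) subunits act together. The alpha subunit relieves the inhibitory gamma subunits (Pde6g) from the catalytic alpha (Pde6a) and beta (Pde6b) subunits of the cGMP phosphodiesterase. The fall in cGMP closes the channel built from Cnga1 and Cngb1, while the exchanger Slc24a1 keeps extruding calcium, and the arrestin Sag ends the signal by binding the phosphorylated pigment. Cones are known to use paralogs for most steps (Gnat2, Gnb3, Gngt2, Pde6c, Pde6h, Cnga3, Cngb3, Slc24a2, Arr3), and mouse cones are known to make Sag beside Arr3.

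RefSeq promoter sequences (GRCm38.p6, 250 bases before to 50 after the gene start used in that table) were matched for 7 of the 10 genes: Sag, Gnb1, Cnga1, Pde6b, Gngt1, Cngb1 and Slc24a1. Gnat1, Pde6a and Pde6g had no entry. TAATCC, read on both strands (GGATTA on the other) and the type of site bound by the photoreceptor homeobox factor CRX, was found in 4 of the 7, against 7.06% of 32851 promoters of the same length. It begins 44 bases before the start in Gngt1, 87 in Sag, 228 in Cnga1, and 58 and 25 in Cngb1. TGCTGA, read on both strands (TCAGCA on the other), a half-site of the kind bound by Maf-family factors such as the rod factor NRL, was found in 2 of the 7, against 19.5% of all promoters. It begins 8 bases before the start in Pde6b and 187 in Sag, and no matches overlap. The first pair below belong to genes that both rods and cones showed at high levels (Sag, chr1:87803430-87803729 on the plus strand; Gngt1, chr6:3993758-3994057 on the plus strand). The other pair belong to genes that were higher in rods than in cones (Pde6b, chr5:108388123-108388422 on the plus strand; Cngb1, chr8:95306536-95306835 on the minus strand). Capitals mark the matches, which are descriptions of letters and not binding sites.
Sag: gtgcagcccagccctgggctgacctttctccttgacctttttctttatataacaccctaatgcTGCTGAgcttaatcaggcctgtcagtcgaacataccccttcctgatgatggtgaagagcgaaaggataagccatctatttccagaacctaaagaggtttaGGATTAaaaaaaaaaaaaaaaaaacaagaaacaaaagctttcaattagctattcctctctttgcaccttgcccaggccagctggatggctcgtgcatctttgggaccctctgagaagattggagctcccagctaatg
Gngt1: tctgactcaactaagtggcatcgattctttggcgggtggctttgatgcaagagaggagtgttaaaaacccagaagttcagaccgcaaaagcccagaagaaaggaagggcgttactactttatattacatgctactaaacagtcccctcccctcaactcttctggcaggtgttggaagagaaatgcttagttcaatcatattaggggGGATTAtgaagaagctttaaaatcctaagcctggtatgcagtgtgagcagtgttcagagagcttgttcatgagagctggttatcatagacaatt
Pde6b: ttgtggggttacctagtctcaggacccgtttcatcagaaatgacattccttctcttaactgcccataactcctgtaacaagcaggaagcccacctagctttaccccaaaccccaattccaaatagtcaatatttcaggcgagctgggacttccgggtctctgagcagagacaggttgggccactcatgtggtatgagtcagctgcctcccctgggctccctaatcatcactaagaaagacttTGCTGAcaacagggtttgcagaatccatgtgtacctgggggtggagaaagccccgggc
Cngb1: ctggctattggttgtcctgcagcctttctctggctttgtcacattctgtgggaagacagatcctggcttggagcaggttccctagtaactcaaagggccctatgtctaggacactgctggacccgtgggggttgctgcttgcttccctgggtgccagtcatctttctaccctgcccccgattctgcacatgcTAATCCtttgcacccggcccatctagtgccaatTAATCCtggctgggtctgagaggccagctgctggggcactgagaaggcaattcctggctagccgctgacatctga

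On most arrays the dimmest probe sets fall in the order of their identifiers, on 1 array up to 3.99. Values at or below 3.99 were therefore raised to that floor before log2 was taken, and a difference is given as "at least" where every array of the lower set is at the floor and no array of the higher set is. Where part of the arrays are at the floor, the value is the difference of the floored log2 means and no bound, and their number is given. These bounds assume that the deposited intensities still hold their background signal. The floor was set on 1 array. Of 69 arrays with 2 or more members at or below it, 20 had those members in descending identifier order. Of the member values 0 of 90 were at or below the floor in rods, 29 of 60 in cones and 379 of 630 in the other sets, against 10.5% of all values in the table. Differences between sets were tested in limma over all 78 arrays, with Benjamini-Hochberg adjustment over 15102 tested genes. A gene was called where its adjusted p was below 0.05 and the sets were at least 1 log2 unit apart. All 10 members passed the filter on low values, 8 of them in a set outside rods as well and 2, Pde6a and Pde6b, through the rod sets alone. The p-values of these comparisons cover only the scatter among replicate arrays. Tests on line or set means cover the scatter among lines or sets. In sorted bulk samples fewer cells of a type and less RNA per cell cannot be told apart.

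The labels of the rod and cone sets were checked against markers of each. Summed over 4 rod markers in the table (Nrl, Esrrb, Samd7, Reep6), intensity was 252 to 561 in rods, against 39.7 to 87.5 in cones. Of these 4, 2 were called higher in b2 1st than in Chrnb4, and 2 in the later b2 sets than in d4. The lowest difference of a single rod marker was -0.21 and -0.32, so not all 4 were higher in rods. Over 8 cone markers it was 27.6 to 242 in rods, against 13645 to 16338 in cones. Opn1sw, the short-wavelength cone opsin, was at or below the floor on 8 of 9 rod arrays and read at least 2236 on every cone array. Of 5 Müller glia markers, Glul (glutamine synthetase) was called higher in b2 1st than in Chrnb4 and in the later b2 sets than in d4, and Rlbp1 was called higher in the later b2 sets than in d4. Glul read 16.4 to 1010 in rods and was at or below the floor on 4 of 6 cone arrays. The summed Müller markers ranged from 256 to 1949 in rods, against 175 to 408 in cones. In the later b2 sets against d4, Slc32a1 (amacrine) and Thy1 (ganglion) were also called higher, and Cabp5 (bipolar), C1qb and C1qc (microglia) lower, while b2 1st against Chrnb4 gave no further call among markers of other cells. The part of these markers in the rod and cone differences was not tested. Nr2e3 and Guca1b were not analysed here.

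**Figure D1:**
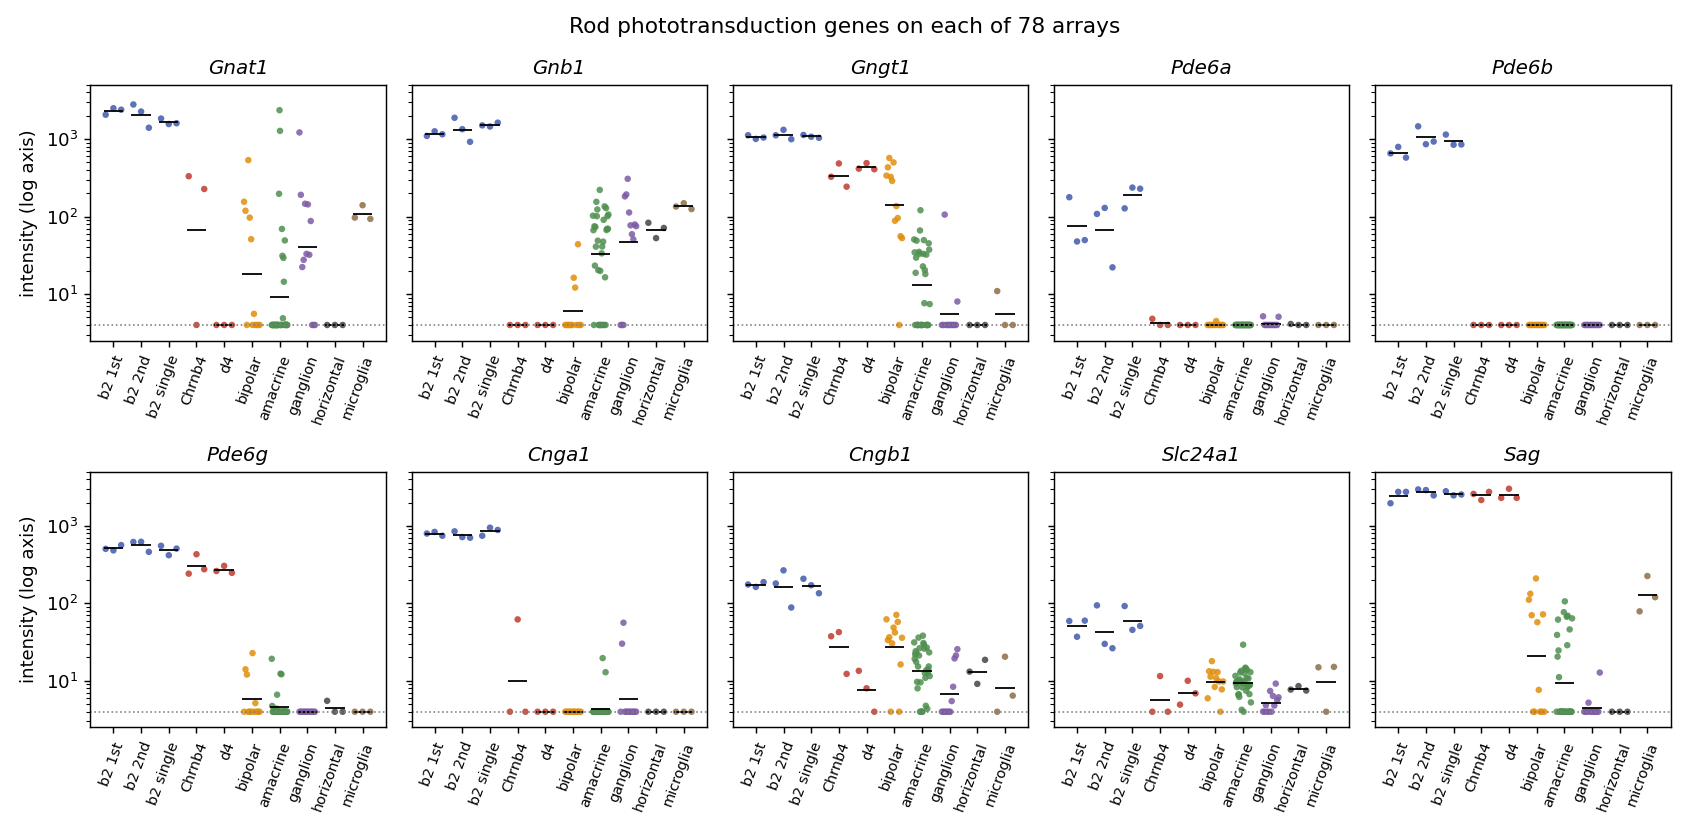
Intensity of the 10 genes on each of the 78 arrays (log axis). Each point is 1 array with values at or below 3.99 drawn at that floor (dotted line), black bars are means of log2 values, and rods (blue) stand left of cones (red) and the other classes. Sag, Gngt1 and Pde6g are high in rods and cones, while Pde6b leaves the floor in rods alone.

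Rods and cones were compared as b2 1st minus Chrnb4, both of batch 1, and as the later b2 sets (b2 2nd and b2 single) minus d4. In each comparison 5 of the 8 genes that passed the filter outside rods were higher in rods (Gnat1, Gnb1, Cnga1, Cngb1 and Slc24a1) and none was lower. Pde6a and Pde6b were called higher too, but they entered the test through the rod sets alone and are left out of that count. Of all tested genes, 3.3% were higher in b2 1st and 4.05% in the later b2 sets, and 8.07% and 12.1% were called in either direction. The median difference over the 8 genes was 2.93 and 3.65, against -0.06 and -0.01 over all tested genes.

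The transducin subunits did not share 1 pattern. Gnat1 read 2064, 2505 and 2394 in b2 1st, against 332, 0.217 and 227 in Chrnb4. The Chrnb4 arrays thus split, with replicate 2 at the floor and the others below every rod array. In the later b2 sets Gnat1 ran from 1401 through a median of 1721 to 2796, and all 3 d4 arrays lay at or below 0.194. The difference was 5.11 (SE 1.08, adjusted p = 0.000584) in batch 1, with 1 of 3 Chrnb4 arrays at the floor, and at least 8.86 (SE 0.94, adjusted p = 5.05e-11) in the other comparison. Without Chrnb4 replicate 2 the first became 3.08 and missed the threshold (adjusted p = 0.0512).

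Gnb1, the beta subunit, read 1099, 1260 and 1153 in b2 1st and 922 to 1884 (median 1478) in the later b2 sets. No cone array rose above 1.65, so rods and cones did not overlap and every cone array lay at the floor. The differences were at least 8.19 (SE 1.03, adjusted p = 1.71e-08) and at least 8.48 (SE 0.89, adjusted p = 4.68e-11). Gnb1 also serves G proteins of many other cells, and the mean of the lowest rod set was 2.40 log2 units above the next set, Grik4.

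Gngt1, the rod transducin gamma subunit, read 1121, 1005 and 1048 in b2 1st, against 327, 485 and 243 in Chrnb4. It read 996 to 1318 (median 1097) in the later b2 sets, against 415, 490 and 408 in d4. Every rod array lay above every cone array, yet no cone array was near the floor. The differences of 1.65 (SE 0.90, adjusted p = 0.297) and 1.35 (SE 0.78, adjusted p = 0.257) were not called with the spread pooled over 26 sets. With the spread taken from the 5 photoreceptor sets alone, a fit added after the data were seen, Gngt1 was called in both (SE 0.23, adjusted p = 0.00171 and SE 0.20, adjusted p = 0.00129). In that fit 6 of the 8 genes were called in each comparison, against 2.01% and 6.23% of all genes.

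Of the phosphodiesterase genes Pde6b was at the floor on all cone arrays, Pde6a on 5 of 6 and the inhibitory subunit on none. Pde6b read 654, 793 and 577 in b2 1st and 846 to 1461 (median 895) in the later b2 sets, against at most 1.55 on any cone array. The differences were at least 7.39 (SE 0.11, adjusted p = 2.08e-51) and at least 7.96 (SE 0.10, adjusted p = 8.31e-57). These SEs are too small, because the 69 arrays outside rods sit at the floor with no spread; from the photoreceptor sets alone they were 0.32 and 0.28 (adjusted p = 8.29e-09 and 5.6e-10). Pde6a read 178, 47.7 and 49.7 in b2 1st and 22.1 to 237 (median 128) in the later b2 sets, and 4.79 on 1 Chrnb4 array was its highest cone value. It was 4.14 (SE 0.30, adjusted p = 6.07e-17, 2 of 3 Chrnb4 arrays at the floor) and at least 4.83 (SE 0.26, adjusted p = 5.46e-23) higher in rods. The Pde6a SEs are too small as well, since 59 of the 63 arrays outside photoreceptors sit at the floor. From the photoreceptor sets alone they were 0.62 and 0.54 (limma adjusted p = 0.00267 and 0.000109). Pde6g, the inhibitory gamma subunit, read 505, 482 and 565 in b2 1st, against 241, 430 and 275 in Chrnb4. It read 418 to 622 (median 531) in the later b2 sets, against 261, 305 and 248 in d4. Only Chrnb4 replicate 2 reached the rod range. The differences were 0.76 (SE 0.38, adjusted p = 0.233) and 0.96 (SE 0.33, adjusted p = 0.032), the second under the threshold of 1 on the log2 scale.

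Both channel subunits and the exchanger were higher in rods. Cnga1, the channel's alpha subunit, read 796, 836 and 745 in b2 1st and 703 to 946 (median 797) in the later b2 sets, so the rod arrays lay close together. In cones it left the floor on Chrnb4 replicate 2 alone, at 62. The differences were 6.31 (SE 0.53, adjusted p = 4.23e-14, 2 of 3 Chrnb4 arrays at the floor) and at least 7.65 (SE 0.46, adjusted p = 1.28e-20). These Cnga1 SEs are too small too, since 59 of the 63 arrays outside photoreceptors sit at the floor. From the photoreceptor sets alone they were 0.77 and 0.67 (limma adjusted p = 0.000506 and 9.87e-06).

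Cngb1, the channel's beta subunit, read 175, 163 and 188 in b2 1st, against 37.6, 42.5 and 12.3 in Chrnb4. It read 88.3 to 266 (median 176) in the later b2 sets, against 13.5, 8.01 and 0.0697 in d4. It was 2.70 (SE 0.61, adjusted p = 0.00133) and 4.45 (SE 0.53, adjusted p = 1.77e-09, 1 of 3 d4 arrays at the floor) higher in rods, and the first did not pass on values without the floor (adjusted p = 0.134). The second Cngb1 probe set stayed at 6.15 to 12.7 in rods, against 5.1 to 7.44 in cones, so the 2 probe sets disagree. Slc24a1 read 59.1, 37 and 59.8 in b2 1st, against 0.115, 11.5 and 0.288 in Chrnb4, and 26.3 to 94.2 (median 48.3) in the later b2 sets, against 4.93, 10 and 6.89 in d4. It was 3.16 (SE 0.47, adjusted p = 1.21e-06, 2 of 3 Chrnb4 arrays at the floor) and 2.84 (SE 0.41, adjusted p = 3.36e-07) higher in rods.

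Sag was not called between rods and cones. It read 1957, 2744 and 2744 in b2 1st, against 2583, 2152 and 2744 in Chrnb4, and 2472 to 2950 (median 2666) in the later b2 sets, against 2296, 3011 and 2296 in d4. Rods and cones overlapped in both comparisons. The differences were -0.02 (SE 1.02, adjusted p = 1) and 0.09 (SE 0.88, adjusted p = 0.966), or SE 0.16 and 0.14 from the photoreceptor sets alone.

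**Figure D2:**
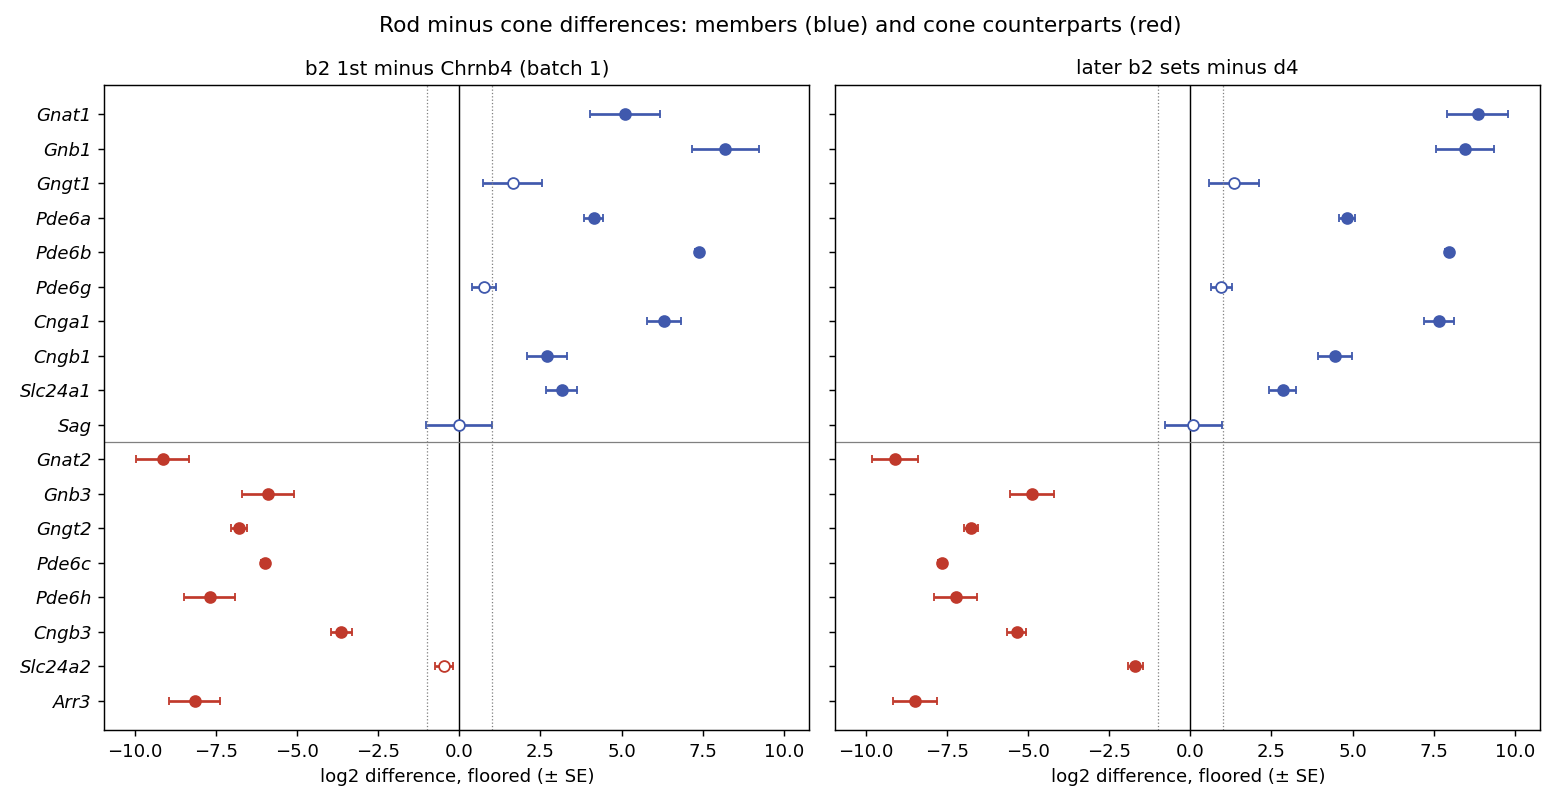
Difference of rods minus cones on the floored log2 scale (points, with SE from the spread pooled over all 26 sets) for b2 1st minus Chrnb4 (left) and the later b2 sets minus d4 (right). The 10 genes are blue and their cone counterparts red; filled points passed the threshold, and dotted lines mark a difference of 1. Sag lies near 0 in both and the cone counterparts to the left, while the other rod genes lie to the right, Gngt1 and Pde6g as open points.

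The cone counterparts ran the other way. Of 8 tested, 7 were lower in b2 1st than in Chrnb4, and 8 of 8 in the later b2 sets than in d4, where 4.76% and 8.07% of all genes were lower. Gnat2, the cone transducin alpha subunit, read at most 0.0406 on the b2 1st arrays, against 1672 to 2847 in Chrnb4, at least 9.15 lower in rods (SE 0.81, adjusted p = 2.26e-13). Arr3, the cone arrestin, was at least 8.16 lower (SE 0.78) and Pde6c, the cone catalytic subunit, at least 6.00 lower (SE 0.12). Gnb3, the cone beta subunit, read 9.05, 32.9 and 14 in b2 1st, against 1104, 698 and 1126 in Chrnb4, and was 5.89 lower (SE 0.80, adjusted p = 1.02e-07). The exchanger Slc24a2 was the exception in batch 1 (-0.48, SE 0.27, adjusted p = 0.315). Cnga3 was too dim to be tested. A further beta subunit, Gnb2, was also lower in rods, by 2.04 (SE 0.31) and 2.93 (SE 0.27).

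Genes of the cascade outside the 10, and of its shutoff and calcium feedback, were not called between rods and cones: limma called 0 of 11 tested in either comparison, against 8.07% and 12.1% of all genes, with 0 and 2 at an unadjusted p below 0.05. That count is near the share over all genes and is no result about this list. Rcvrn, the calcium sensor recoverin, read 1000 to 1461 in rods (median 1218), against 951 to 1731 in cones (median 1374). Guca1a, an activator of guanylate cyclase, read 3972 to 5320 in rods, against 4552 to 5320 in cones. Pdc (phosducin), which binds transducin beta and gamma subunits, read 1061 to 2064 in rods, against 376 to 1158 in cones.

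The 2 rod and cone comparisons share no array. The difference between them was called for 0 of the 10 genes in limma, against 1.93% of all genes, with 3 at an unadjusted p below 0.05. Gnat1 differed by -3.75 (SE 1.43, adjusted p = 0.182); 2 of 3 Chrnb4 arrays and no d4 array read above the floor. Pde6b differed by -0.57 (SE 0.15, adjusted p = 0.0257, under the threshold of 1), with adjusted p = 0.747 from the photoreceptor sets alone.

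Between the cone lines, Chrnb4 minus d4, 1 of the 10 genes was called, against 1.45% of all genes called higher and 5.15% called in either direction. Gnat1 was called higher in Chrnb4, with floored means 4.07 apart (SE 1.08, adjusted p = 0.0135). All 3 d4 arrays and 1 of 3 Chrnb4 arrays were at the floor, so the size is no measured fold. That call was lost without Chrnb4 replicate 1 (2.91, adjusted p = 0.158), without Chrnb4 replicate 3 (3.19, adjusted p = 0.099) and with the spread of the photoreceptor sets alone (adjusted p = 0.125). Cngb1 was 1.84 apart (SE 0.61, adjusted p = 0.0544, 1 of 3 d4 arrays at the floor), and Gngt1, Pde6g and Sag differed by -0.37, 0.18 and -0.02, none of them called. With the spread of the photoreceptor sets alone limma called 0 of the 10. Batch and line cannot be told apart here, since d4 has no batch label.

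Chrnb4 was set against the other 6 sets of batch 1 (Pcp2, Arc 1st, ChAT, Fam81a, Ier5 and PV, 18 arrays). Among the genes that passed the filter outside rod and cone sets, Sag, Gngt1 and Gnat1 were called higher and Gnb1 lower. Of all tested genes, 3.03% were higher and 5.2% lower. The floored mean of Sag was 8.61 higher (SE 0.78, adjusted p = 2.1e-13), of Pde6g 5.73 (SE 0.29, adjusted p = 2.1e-24), of Gngt1 4.16 (SE 0.69, adjusted p = 6.75e-06) and of Gnat1 3.78 (SE 0.83, adjusted p = 0.000659). Of the 18 other arrays 13 were at the floor for Sag, 10 for Pde6g, 6 for Gngt1 and 15 for Gnat1, and 1 Chrnb4 array was for Gnat1. The Gnat1 call was lost without Chrnb4 replicate 1 (2.63, adjusted p = 0.0782). Gnb1 was called lower in Chrnb4, where all 3 arrays were at the floor, as were 4 of the 18 others (floored means -2.73 apart, SE 0.79, adjusted p = 0.0123), and leaving out any 1 Chrnb4 array ended that call (adjusted p = 0.0509 to 0.0619). Pde6g was called higher too, but it entered the test through rod and cone sets alone, so its call is not read as a result. Pde6a and Pde6b entered through the rod sets alone and were not called. This comparison shares the Chrnb4 arrays with the rod and cone comparison of batch 1. Of the 11 cascade and feedback genes outside the 10, 6 were higher in Chrnb4.

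Over line means, with Arc and b2 each as the mean of their sets, the 3 photoreceptor lines were set against the mean of the other 5 classes. Among the genes that passed the filter outside photoreceptors, limma called Sag, Gngt1 and Cnga1 higher. Of all tested genes, 2.42% were higher and 6.74% were called in either direction. Pde6g was called higher too, but its highest floored set mean outside photoreceptors was 8.78 (Kcng4), below the filter of 9.01. It entered the test through photoreceptor sets alone, so its call is not read as a result. Pde6a and Pde6b entered through the rod sets alone. On floored line means Sag was 7.56 higher (SE 0.71, adjusted p = 5.93e-07), Pde6g 6.28 (SE 0.25, adjusted p = 4.44e-13), and Gngt1 5.53 (SE 0.76, adjusted p = 6.74e-05). Of the 63 arrays outside photoreceptors, 39 were at the floor for Sag, 52 for Pde6g and 30 for Gngt1. Cnga1 was 2.85 higher (SE 0.92, adjusted p = 0.0484, 5 of 15 photoreceptor arrays and 59 of the others at the floor), and that call was lost without the line b2 (0.52, adjusted p = 0.532) and when any of most other lines was left out (adjusted p up to 0.062). It was also lost with no filter on low values (adjusted p = 0.0567) and with no variance trend (adjusted p = 0.0545). In batch 1 alone Cnga1 was 4.36 apart (adjusted p = 0.207), and without the floor 4.89 (adjusted p = 0.309). Pde6b, at 2.59 (SE 0.94, adjusted p = 0.0799), and Gnat1, at 2.01 (SE 1.67, adjusted p = 0.453), were not called; Pde6b lay at the floor on all 6 cone arrays and Gnat1 on 4. Without the line d4, 7 of the 10 genes were called. That count is taken over all 10 genes, Pde6a, Pde6b and Pde6g among them, so it is not read as a result. Gnb1 was the 1 gene with a negative difference (-0.45, SE 1.33, adjusted p = 0.852). Of the 11 cascade and feedback genes outside the 10, 7 were higher in photoreceptors, among them Rcvrn, Guca1a, Pdc and Unc119.

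**Figure D3:**
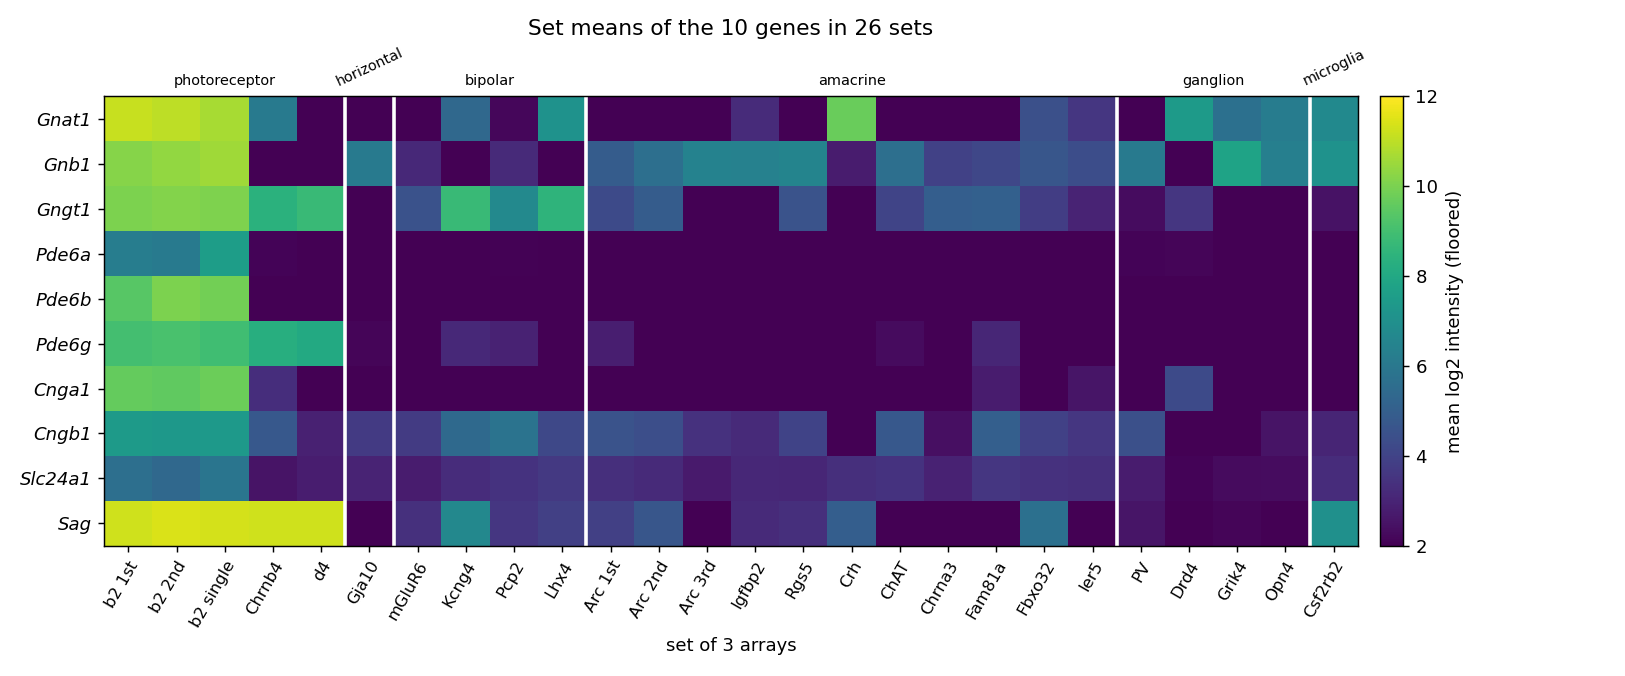
Mean floored log2 intensity of the 10 genes (rows) in the 26 sets of 3 arrays (columns, by class, with rods and cones at the left). The darkest colour is the floor; the 3 b2 sets carry all 10 genes, and outside photoreceptors Gnat1 in Crh and Gngt1 in Kcng4 and Lhx4 stand out.

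The repeated rod sets gave the error of the rod levels. In b2 1st minus the later b2 sets, limma called 0 of the 10 genes, against 1.55% of all genes, with 2 at an unadjusted p below 0.05. Pde6b was -0.57 apart (SE 0.10, adjusted p = 0.000223, under the threshold of 1), with adjusted p = 0.643 from the photoreceptor sets alone. Pde6a became called without b2 1st replicate 1 (-1.22, adjusted p = 0.00204) and without b2 2nd replicate 3 (adjusted p = 0.000458), against -0.60 over all arrays. With the spread of the photoreceptor sets alone, its limma adjusted p over all arrays was 0.836. In b2 2nd minus b2 single, both of batch 2, 1 of the 10 was called lower, against 1.31% of all genes called lower and 2.7% in either direction. Pde6a read 108, 129 and 22.1 in b2 2nd, against 128, 237 and 229 in b2 single (-1.49, SE 0.30, adjusted p = 0.00124). The call was lost without b2 2nd replicate 3 (-0.69, adjusted p = 0.0877), without the floor (adjusted p = 0.466) and with the spread of the photoreceptor sets alone (adjusted p = 0.496). That array, b2 2nd replicate 3, read the lowest rod value of 7 of the 10 genes, Gnat1 (1401), Gnb1 (922), Gngt1 (996), Pde6a (22.1), Cnga1 (703), Cngb1 (88.3) and Slc24a1 (26.3). It also read the highest rod value of Glul (1010), 1 of 5 Müller glia markers. In b2 2nd minus b2 single these 5 markers ran from -1.12 to 1.61 (median 0.02), and limma called none. The part of Müller glia RNA in that array was not tested. Within a rod set the Pde6a arrays had an SD of 1.08, 1.40 and 0.50 on the log2 scale in b2 1st, b2 2nd and b2 single.

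Outside photoreceptors the 10 genes did not share 1 order of sets, and the following levels are descriptions without a test. Pde6b stayed at or below the floor on 63 of 63 arrays, Pde6a on 59 and Cnga1 on 59. Over the 26 set means the pairs among 9 genes (without Gnb1) correlated at a median r of 0.72 (0.341 to 0.988, 36 pairs), a description that the rod sets dominate. Over the 21 sets outside photoreceptors the median was 0.0338 (-0.547 to 0.703, 28 pairs, since Pde6b does not vary there).

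Gnat1 was bright in several sets outside photoreceptors. In Crh it read 197, 2362 and 1277, so that replicate 2 lay inside the rod range, and the set mean of 840 was the highest outside rods. In Drd4 it read 1218, 191 and 22.3, in Lhx4 535, 96.9 and 51, and in the microglia set Csf2rb2 97, 140 and 93.3. On the same Crh arrays Pde6b, Cnga1, Pde6g and Gngt1 lay at or below the floor, and Sag read 76.9, 3.71 and 106. Glul read 321, 1168 and 428 in Crh and 2267, 714 and 296 in Drd4, so that the array with the most Gnat1 in each set was also the one with the most Glul. Summed over 5 Müller markers the Crh arrays held 596 to 3364 and the Drd4 arrays 1438 to 5984, against 105 to 5984 over all 63 arrays. Other markers were also high on these arrays. The 4 rod markers summed to 23.3 to 125 in Crh, against 13.8 to 125 over the 63 arrays. The 6 bipolar markers summed to 133 to 1138 in Crh and 620 to 1912 in Drd4 (median over the 63 arrays 68.5), and the 4 endothelium markers to 25.6 to 222 in Crh and 122 to 563 in Drd4 (median over the 63 arrays 27.7). The part of RNA from other cells in the Gnat1 levels was not tested.

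**Figure D4:**
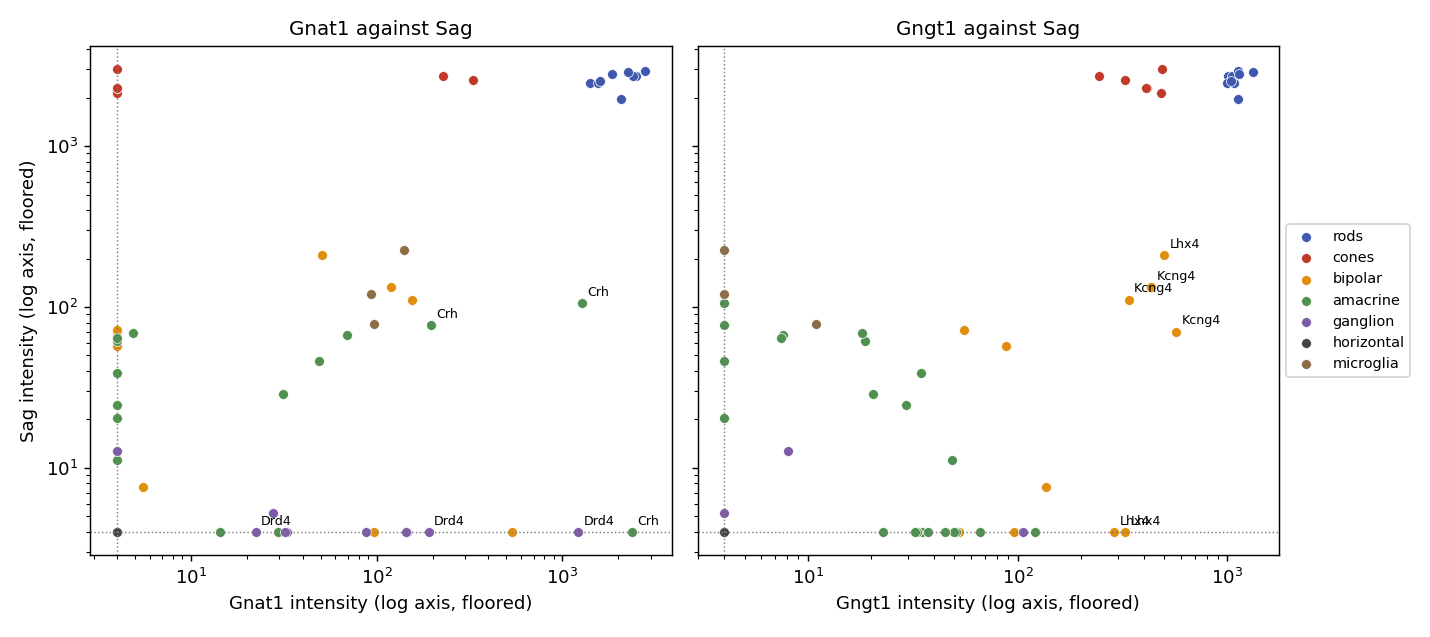
Gnat1 (left) and Gngt1 (right) against Sag on each array, log axes in intensity, floored at 3.99 (dotted lines), with rods in blue, cones in red and other classes by colour. The highest Crh array has Gnat1 at 2362 with Sag at the floor, and the Kcng4 and Lhx4 arrays have Gngt1 between 288 and 571 with Sag at 209 or less.

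Gngt1 was high in part of the bipolar class. Kcng4 read 338, 432 and 571 and Lhx4 325, 288 and 500, within or near the cone range of 243 to 490, and Pcp2 read 88.3, 137 and 95.7. In the order of set means Kcng4 (437), d4 (436), Lhx4 (361) and Chrnb4 (338) followed the 3 rod sets, and neighbours among these 4 differed by at most 0.27, less than the SD of 0.38 in Kcng4. Pde6g read at most 14.1 on the same Kcng4 arrays. The labels give Kcng4 and Lhx4 as bipolar cells and Pcp2 as rod bipolar cells.

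Gnb1 followed another order than the rest. After the rod sets (1527, 1326 and 1169) came Grik4 at 221, Csf2rb2 at 136 and Rgs5 at 90.8, and 43 of the 63 arrays outside photoreceptors lay above the floor. Kcng4, Lhx4, Drd4 and both cone sets lay at the floor on every array. Sag outside photoreceptors was highest in Csf2rb2 (78.8, 225 and 120) and Kcng4 (111, 133 and 70.2), against at least 1957 on every rod array. Cngb1 was above the floor on 48 of the 63 arrays, highest in Pcp2 (42, 71 and 57.6), and Slc24a1 on 56, at most 29.2.

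The Arc line, measured as 3 sets, showed how far low levels repeat. In Arc 1st minus Arc 3rd limma called 0 of the 10 genes, against 0.55% of all genes, with 2 at an unadjusted p below 0.05. In Arc 2nd minus Arc 3rd it also called 0, against 0.0596%, with 2 at an unadjusted p below 0.05. Gngt1 read 18.8 to 48.9 in Arc 2nd, against the floor on every Arc 3rd array (at least 2.91, SE 0.90, adjusted p = 0.483). Without the floor Gngt1 (9.09, adjusted p = 0.0233) and Sag (8.46, adjusted p = 0.0411) were called.

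Batch 1 and batch 3 sets of neurons outside photoreceptors were compared on set means, with class as a term. Cngb1 was 1.48 higher in batch 1 on floored values (SE 0.32, adjusted p = 0.0118), the 1 gene of 10 called, against 1.56% of all genes higher and 2.45% called in either direction. It was above the floor on all 18 arrays of batch 1 and on 16 of 27 of batch 3, and the call was lost without the set PV (1.25, adjusted p = 0.055). It was also lost with the mean of its probe sets (0.69, adjusted p = 0.0111, under the threshold of 1) and with no class term (1.51, adjusted p = 0.0575). Gnat1 pointed the other way without being called (-2.85, SE 1.02, adjusted p = 0.066). It was called without Arc 3rd (-3.35, adjusted p = 0.0402) and without Rgs5 (-3.35, adjusted p = 0.0347). With each set left out in turn, the Gnat1 difference ran from -3.35 to -1.94 and its limma adjusted p from 0.0347 to 0.201. The Gnat1 levels of Crh, Drd4 and Lhx4 and the Gngt1 levels of Kcng4 and Lhx4 are all from batch 3. In that batch Gnat1 was at or below the floor on every array of Gja10, Arc 3rd and Rgs5, and Gngt1 on every array of Gja10, Arc 3rd, Igfbp2, Crh, Grik4 and Opn4. Gngt1 was 0.44 apart between the batches (adjusted p = 0.596).

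The tested genes whose set means were most like the mean profile of the 9 genes without Gnb1 were, by Pearson r over 26 sets, Fscn2 (0.964), Rp1 (0.963), 1700020D05Rik (0.961), Olfr772 (0.947), Nxnl1 (0.943), Sh2d1a (0.940), Pdzph1 (0.932), Ppp1r42 (0.925), Rdh12 (0.921) and Spata1 (0.911). Fscn2, a photoreceptor fascin, averaged 663 in rods, against 38.2 in cones and 3.99 in the other sets. Rp1, a protein of the photoreceptor axoneme, averaged 297 in rods, against 6.38 in cones and 3.99 elsewhere. Nxnl1, the gene of rod-derived cone viability factor, averaged 757 in rods, against 108 in cones and 4.48 elsewhere. Gnb1 was most like Armc1 (0.831), Plpp2 (0.819), Gm10777 (0.790), Ext1 (0.785) and Ptges2 (0.762).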

How the data were processed

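The deposited table of intensities, 1 linear value per probe set and array, was used for all 78 arrays. Per the submitters' processing notes the authors processed the arrays with RMA in the oligo package and R 2.11.1 on mouse build mm9; their settings are not given in the sources used here. Sorted, all columns hold the same values (largest difference 0.0), and the values are linear, so log2 was taken here although log2 values had been assumed. The floor of 3.99 is the top of the longest run of lowest values in descending order of probe set identifier, on 1 array; such a run of 10 or more was found on 70 arrays.

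Of 22347 probe sets 19446 carry 1 gene symbol, 735 several and 2166 are not listed. The probe set with the highest mean stood for a gene. Genes with at least 1 set mean above 9.01, the median of all values, were tested (15102 of 19301). Linear models used limma 3.58.1 in R 4.3.3 (lmFit and eBayes with trend). They were fitted on arrays with 1 mean per set, or on line or set means, and were tested on simulated data first. The members, gene lists and tests were chosen with earlier results of these data known. The named genes are the 10 members, their cone counterparts, listed cascade genes and the genes most alike in pattern; Glul and Rlbp1, the markers named in the label check and the genes picked as examples were chosen after their values were seen. Replicate numbers did not pair arrays (mean r of deviations 0.000762 over 9044 genes). Alternatives covered the floor, the filter, centring, probe set choice, trend, threshold, replicate block and each array, line or set left out. Figures were drawn with matplotlib 3.10.9 in python 3.11.15. The number of arrays limits the precision.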

Additional observations from a re-analysis of the deposited data

Results flagged for a closer look

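Of 50 groups of 4 or 9 arrays or line means, 8 had an array or line far from the others. Chance alone marks about 1 in 20 groups with normal scatter. Part of these groups hold mostly values at the floor, where that rate does not apply. Among the amacrine line means Gnat1 in Crh stood apart at 840, and among the bipolar line means Sag in Kcng4 at 101. Among the ganglion line means Cnga1 in Drd4 stood apart at 18.9, carried by replicates 2 and 3 (30.2 and 56.2). The Pde6g values of 8.43 in the amacrine line Fam81a and 19.2 on Arc 1st replicate 1, and the Pde6a value of 4.15 in the bipolar line Pcp2, lie near the floor of 3.99. Among the 9 rod arrays Gngt1 on b2 2nd replicate 2 was highest at 1318 and Sag on b2 1st replicate 1 lowest at 1957, both less than 1 log2 unit from the other rod arrays. Pde6b differed between the rod and cone comparisons, by -0.57 (limma adjusted p = 0.0257); all cone arrays are at the floor, so this is the difference between the b2 sets.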

How the results depend on the processing

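Values at or below the floor give bounds only, and 408 of 780 member values are such. Of 814 values of single genes under an alternative, 753 kept their direction and side of the threshold, 37 no longer passed, 20 newly passed and 4 changed sign. Both rod and cone comparisons kept 7 called genes (Pde6a and Pde6b among them) under all settings but those named here: values without the floor gave 6 in batch 1, the adjusted p alone gave 8 in the other, leaving out 1 array gave 6 to 7 in batch 1 and 7 to 8 in the other, and the spread of the 5 photoreceptor sets alone gave 8 in each. Without the floor, counts became 3 in Chrnb4 minus d4, 0 in b2 2nd minus b2 single, 2 in Arc 2nd minus Arc 3rd and 2 in batch 1 minus batch 3; the cause was not tested. Chrnb4 minus d4 gave 2 with the stricter filter (fewer genes tested), 0 with the spread of the photoreceptor sets alone, and 1 to 2 with 1 array left out. The mean of the probe sets of a gene gave 0 between batches, as did the fit with no class term, and leaving out 1 set gave 0 to 2. In b2 1st minus the later b2 sets the adjusted p alone gave 1, and leaving out 1 array 0 to 1. In b2 2nd minus b2 single the spread of the photoreceptor sets gave 0, and leaving out 1 array 0 to 1. Chrnb4 minus the other sets of batch 1 kept 4 to 6 and photoreceptors minus the other classes 3 to 7 with 1 array or line left out. Sag in b2 1st minus Chrnb4 (-0.02) changed sign to 0.0071 with centred arrays, and ran from -0.12 to 0.15 with 1 array left out. The replicate block gave 7, 7, 1, 5, 0, 1, 0 and 0 called genes in the 8 comparisons of sets, as without it; same-numbered arrays correlated between -0.403 and 0.231.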
